A study of Mus musculus with 6 samples.

Results

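The genes described here are 10 mouse genes of 2 routes of inflammatory cell death, the inflammasome and necroptosis. They were taken by symbol from the 23351 genes of the deposited table, and each had exactly 1 entry. In the order of their roles they are the inflammatory caspase genes Casp1, Casp4 and Casp12, the sensors and adaptor Nlrp3, Aim2 and Pycard, the pore-forming Gsdmd, and Casp8, Ripk3 and Mlkl of the necroptosis core. RNA came from primary chondrocytes of C57BL/6 mice, digested from the cartilage of the knee at postnatal day 3. Confluent cultures received 100 ng/ml of recombinant human BMP-2, a cartilage growth factor, for 24 hours in both groups. The comparison is between 3 control libraries and 3 libraries of Uhrf1 conditional knockout (cKO) mice. The promoter that drove recombination, the genotype of the controls beyond their name and the number of animals per library are not stated in the sources used here. The question was what loss of Uhrf1, a protein needed to copy DNA methylation onto new strands, did to the transcripts of chondrocytes.

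In the inflammasome pathway, a sensor protein such as NLRP3 or AIM2 meets a danger signal and gathers the adaptor ASC, the product of Pycard. ASC recruits pro-caspase-1, which cleaves the precursors of interleukin-1 beta and interleukin-18 and also cuts gasdermin D. The freed part of gasdermin D opens pores in the plasma membrane, a lytic death called pyroptosis. The product of mouse Casp4, also called caspase-11, binds bacterial lipopolysaccharide itself and cuts gasdermin D. In necroptosis, RIPK3 phosphorylates the pseudokinase MLKL, which then breaks the plasma membrane, and caspase-8 holds this step back. These proteins are switched on after translation, so an RNA level does not measure cell death.

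Loss of Uhrf1 bears on DNA methylation, and 3 of the genes lie side by side on chromosome 9, so their promoters are shown first. Windows run from 250 bases before to 50 bases after a RefSeq transcript start and are taken from RefSeq on GRCm38.p6, the assembly that mm10 names. Of the 10 genes, 9 matched an entry, and Gsdmd did not. Casp1, Casp4 and Casp12 are shown because they are neighbours with different values, and Mlkl because its values differed between the groups. CpG dinucleotides, the bases that UHRF1 and DNMT1 keep methylated, are in capitals. Position 1 is the first transcribed base, and the position of a CpG is that of its C. The Casp1 window is chr9:5298267-5298566 on the plus strand.
Casp1 promoter: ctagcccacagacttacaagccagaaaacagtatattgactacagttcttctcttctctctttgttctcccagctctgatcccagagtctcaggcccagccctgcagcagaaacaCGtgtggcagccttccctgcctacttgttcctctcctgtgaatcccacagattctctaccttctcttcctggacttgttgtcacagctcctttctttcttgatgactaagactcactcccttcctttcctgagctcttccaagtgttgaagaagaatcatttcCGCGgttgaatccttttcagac
The Casp4 window is chr9:5308610-5308909 on the plus strand, at the start that the deposited table uses.
Casp4 promoter: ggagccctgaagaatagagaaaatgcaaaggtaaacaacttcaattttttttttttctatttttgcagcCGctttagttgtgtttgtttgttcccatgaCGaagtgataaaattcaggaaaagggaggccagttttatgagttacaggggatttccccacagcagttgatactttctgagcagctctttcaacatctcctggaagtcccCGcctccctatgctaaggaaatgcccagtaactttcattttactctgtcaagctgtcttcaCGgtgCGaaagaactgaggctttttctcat
The Casp12 window is chr9:5345226-5345525 on the plus strand.
Casp12 promoter: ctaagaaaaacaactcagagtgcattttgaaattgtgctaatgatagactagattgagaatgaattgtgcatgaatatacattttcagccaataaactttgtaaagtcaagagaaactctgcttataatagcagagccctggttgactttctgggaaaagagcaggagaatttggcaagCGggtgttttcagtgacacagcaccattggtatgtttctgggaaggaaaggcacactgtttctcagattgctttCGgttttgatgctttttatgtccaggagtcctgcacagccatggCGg
The Mlkl window is chr8:111338156-111338455 on the minus strand, and its start site lies 302 bases outside the interval that the deposited table gives for the gene.
Mlkl promoter: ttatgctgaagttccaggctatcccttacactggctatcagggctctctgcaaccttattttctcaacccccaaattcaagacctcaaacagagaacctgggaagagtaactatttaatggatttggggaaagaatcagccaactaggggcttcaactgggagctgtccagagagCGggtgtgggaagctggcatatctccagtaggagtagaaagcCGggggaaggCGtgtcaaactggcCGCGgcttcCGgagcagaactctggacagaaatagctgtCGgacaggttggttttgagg

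The promoter windows of the 9 matched genes were poor to middling in CpG. Casp1, Casp12 and Pycard held 3 CpG each, Casp4, Nlrp3, Aim2 and Casp8 held 5, Mlkl 7 and Ripk3 10. The Casp8 window lies 7128 bases from the start that the deposited table gives, so it may not be the promoter of the transcript measured. For Casp4 and Nlrp3, which have 2 windows each, the one at the deposited start was used. Over all 32851 RefSeq windows of 300 bases the median was 7 and the middle 50% ran from 3 to 20. The CpG of the Casp1 window lay at positions -135, 29 and 31. As few CpG as in Casp1 were found in 31.4% of all windows. Ripk3, the gene of this set with the most CpG, was above 58.6% of windows or level with them. Methylation itself was not measured in these data. The windows of Casp1, Casp12 and Pycard are equal in CpG number. The RNA of Casp1 was higher in every cKO library than in any control, that of Pycard was lower, and the ranges of Casp12 overlapped. Whether the CpG number bears on these values was not tested.

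**Figure D1:**
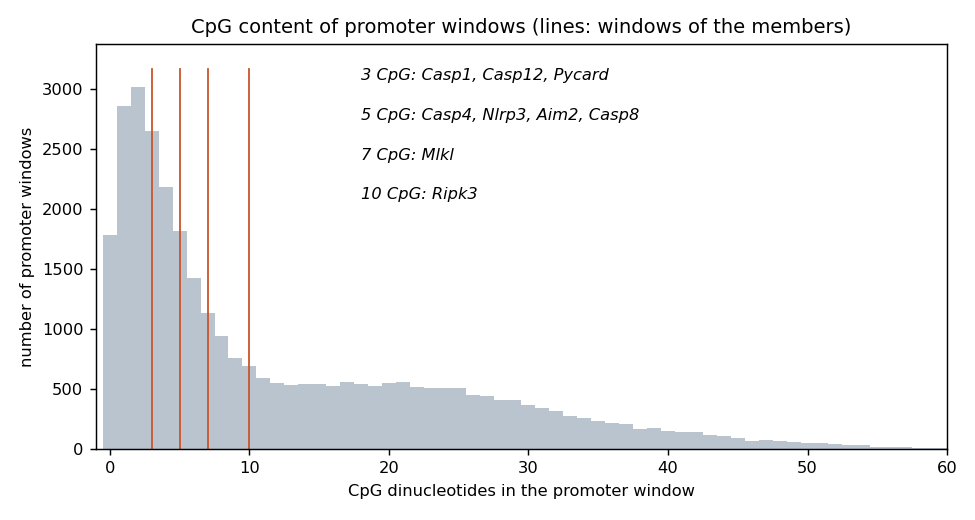
Number of RefSeq promoter windows of 300 bases (y axis) by the CpG dinucleotides they hold (x axis), over 32851 windows. Lines mark the windows of the 9 genes with an entry, which hold 3 to 10 CpG against a median of 7.

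Both strands of the windows were also searched for the interferon-stimulated response element (ISRE, GAAA, any 2 bases, GAAA) and the gamma-interferon activated site (GAS, TTC, any 3 bases, GAA, which reads the same on both strands). The ISRE letters were in none of the 9 windows, against 3.44% of all windows. The GAS letters were in the Casp12 window only, beginning at positions -102 and -36, against 8.30% of all windows. These matches overlap no ISRE match. A match here is a run of letters and not a measured binding site.

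The libraries were checked before the genes were compared. Uhrf1 stood at 28.2, 22.9 and 30.6 FPKM in Control 1 to 3 and at 3.22, 3.17 and 2.73 in cKO 1 to 3, so the targeted gene went with the labels. FPKM divides a gene's fragments by transcript length and by library size, so levels of different genes can be set side by side. Absolute depth is unknown. Judged by the steps between low values, depth relative to Control 1 ran from 0.864 to 1.01. Pairs of libraries correlated with Pearson's r of 0.981 to 0.986 within groups and 0.946 to 0.956 between them, taken across genes, which are no replicates. Cartilage markers were high in every library, with 11 of them summing to 11928 to 15568 FPKM in controls and 7952 to 8851 in cKO. The Y-linked gene Ddx3y stood at 31.6, 24.3 and 22.2 FPKM in Control 1, Control 3 and cKO 1 and was listed at 0 in the other libraries. Of 3 further Y-linked genes, Uty had a trace of 0.0637 FPKM in cKO 2. The libraries of each group therefore do not all come from the same animal, but the labels do not say that each came from another animal or culture. The p-values below measure the spread between these libraries, which may be partly technical. All control names carry a different label prefix from all cKO names, and its meaning and genotype cannot be told apart.

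In control chondrocytes the necroptosis kinase gene Ripk3 and the caspase genes Casp12 and Casp8 were the most abundant of the 10, and the inflammasome sensors were listed at 0. Mean FPKM in controls ran from 24.5 for Ripk3, 20.8 for Casp12 and 14.8 for Casp8 down to 5.33 for Casp4 and 3.72 for Mlkl. Pycard followed at 1.45, Gsdmd at 1.18 and Casp1 at 0.0768. The ranges of Ripk3 and Casp12 overlapped, as did those of Pycard and Gsdmd, so these neighbours in the order did not differ beyond their spread. In cKO cells Casp12 and Ripk3 led at 24.1 and 20.5 FPKM, again with overlapping ranges, and Casp8 followed at 14.2. Mlkl, at 8.85, stood above Casp4, at 6.62, whereas in controls it stood below Casp4, and in neither group did their ranges meet. Casp1 and Gsdmd, at 5.36 and 5.08, had overlapping ranges just below Casp4.

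The genes were chosen by their FPKM values in this same contrast of cKO against control. Their differences are therefore given as values with no p, and nothing rests on how many of them differ. For scale, 3 of the 8 that could be tested (Casp1, Gsdmd and Mlkl, all higher in cKO) were past limma's adjusted p threshold of 0.05. Of all 11911 tested genes 17.8% were past it in either direction, and 9.81% were past it and higher in cKO. The authors' deposited table tested 7 of the 10 and marked 2 as significant, Gsdmd and Mlkl but not Casp1, beside 22.9% of the 9701 genes tested there. In 5 of the 8 tested genes of the set the values of the groups did not overlap, and this was also so for 35.9% of all tested genes. In 4 of them all cKO values were above all controls (18.4% of all tested genes) and in 1, Pycard, all were below (17.5%). In Aim2, which was not tested, all cKO values were above all controls too. Testing asked for at least 1 FPKM in 2 or more libraries. Casp1 met this only through its cKO libraries, and Nlrp3 and Aim2 did not meet it.

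**Figure D2:**
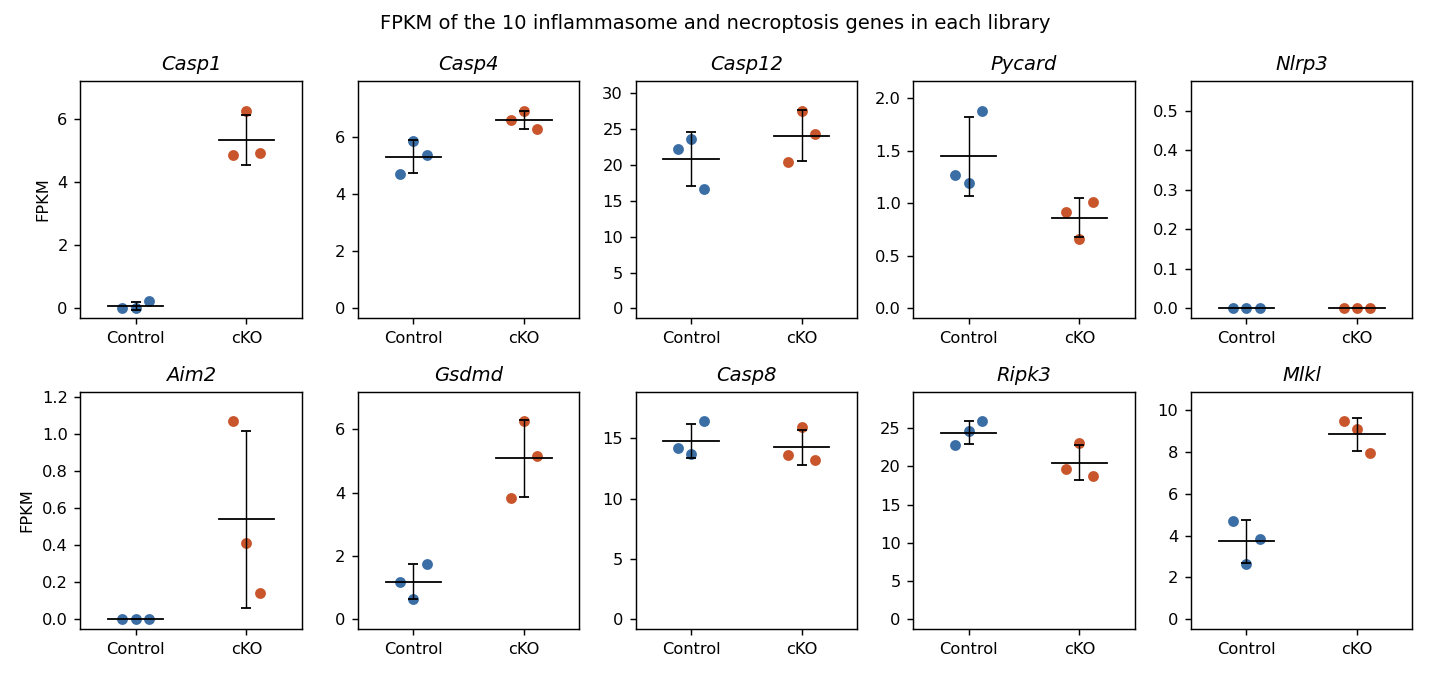
FPKM (y axes, each from 0) of the 10 genes in the 3 control and 3 cKO libraries. Points are libraries, the horizontal line is the mean and the error bar is 1 SD. Casp1, Casp4, Aim2, Gsdmd and Mlkl lie higher in every cKO library than in any control, and Pycard lies lower. Casp12, Casp8 and Ripk3 overlap and Nlrp3 is at 0 throughout.

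Among the inflammatory caspases the groups stood far apart for Casp1 and close for its neighbours. Casp1 encodes the protease that the inflammasome activates (chromosome 9, 5298517 to 5307281, mm10, plus strand, protein-coding). It was listed at 0 in Control 1 and Control 2, at 0.230 FPKM in Control 3, and at 4.87, 6.28 and 4.92 in cKO 1 to 3. Every cKO library was thus above every control. The mean in cKO cells was 5.36 ± 0.801 FPKM (SD, n = 3), and the fitted difference was 2.56 (SE 0.181) on the log2(FPKM + 1) scale. No fold is given against a group listed at 0 in 2 of its libraries. The fitted difference depended on the added constant and was 3.36 with 0.5 FPKM added and 5.19 with 0.1 added.

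Casp4 encodes the caspase that senses lipopolysaccharide inside the cell (chromosome 9, 5308860 to 5336791, plus strand). It stood at 4.73, 5.86 and 5.40 FPKM in Control 1 to 3 and at 6.62, 6.94 and 6.29 in cKO 1 to 3. The groups did not overlap, but the step between them was small, from 5.33 ± 0.568 to 6.62 ± 0.329 FPKM (SD, n = 3), a ratio of 1.24. Casp12 encodes a caspase of the same family that is found at the endoplasmic reticulum (chromosome 9, 5345476 to 5373034, plus strand). Its values were 22.3, 23.6 and 16.6 FPKM in Control 1 to 3 and 20.5, 27.6 and 24.3 in cKO 1 to 3. The ranges overlapped, with means of 20.8 ± 3.75 and 24.1 ± 3.55 FPKM (SD, n = 3).

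The 3 caspase genes follow each other on the same strand, with 1578 bases between Casp1 and Casp4 and 8684 between Casp4 and Casp12 in the deposited intervals. They are relatives, so shared reads were looked for. The longest stretch that protein-coding GENCODE transcripts of Casp1 share with those of Casp4 or of Casp12 is 12 bases, and that of Casp4 with Casp12 is 21. No window of 25 bases is shared by any pair. No other gene of the table overlaps any of the 10, though GENCODE lists a gene on the other strand of Pycard and of Mlkl, and an overlapping one at Casp8. The nearest genes beyond the cluster lie 502282 bases before Casp1 (Gria4, a glutamate receptor gene, at 0.151 and 0.0710 FPKM in control and cKO) and 795577 bases after Casp12. The latter is Pdgfd, a growth factor gene, at 2.02 ± 0.561 FPKM in control and 3.35 ± 0.658 in cKO (SD, n = 3; limma adjusted p = 0.0878). Of the 4 tested genes other than these caspases within 1 Mb, limma called none (adjusted p = 0.0878 to 0.760), and none was called by the authors' deposited test. At an unadjusted p under 0.05, 2 of the 4 would pass.

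**Figure D3:**
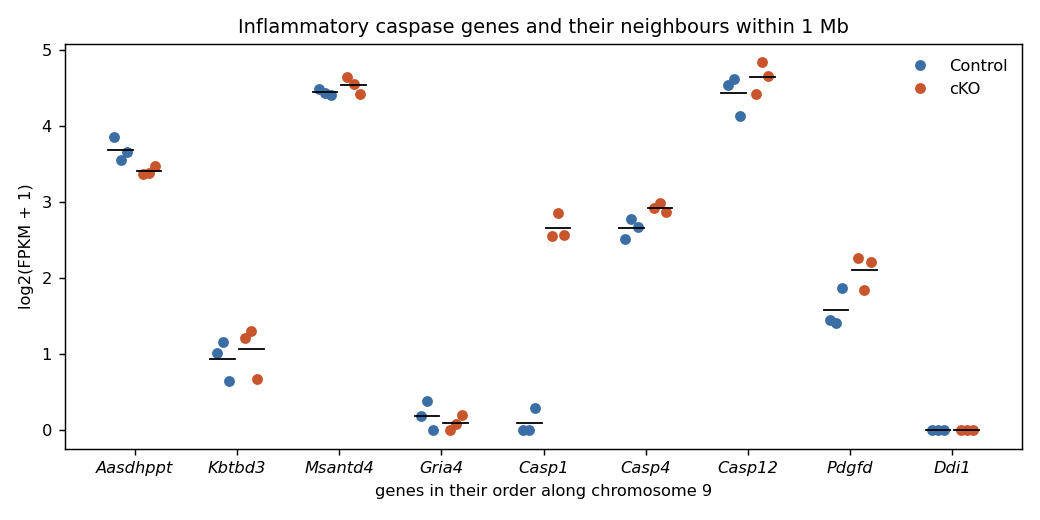
log2(FPKM + 1) (y axis) of the genes within 1 Mb of the Casp1, Casp4 and Casp12 cluster, in their order along chromosome 9 (x axis, not to scale). Points are libraries and lines are means. Casp1 lies near 0 in the controls and just below Casp4 in cKO cells, while Casp4 and Casp12 are present in both groups.

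The sensors and the adaptor were low or listed at 0 in both groups. Nlrp3 encodes the sensor of membrane damage and crystals (chromosome 11, 59542686 to 59566956, plus strand) and was listed at 0 in all 6 libraries. An entry of 0 can also be a failed estimate, so absence is not shown. Aim2 encodes a sensor of DNA in the cytosol (chromosome 1, 173420604 to 173466036, plus strand). It was listed at 0 in all 3 controls and at 1.07, 0.409 and 0.139 FPKM in cKO 1 to 3. The cKO libraries were all above the controls, yet they spread widely, with a mean of 0.539 ± 0.479 FPKM (SD, n = 3), and the authors' deposited table did not test the gene. Pycard, the adaptor gene (chromosome 7, 127991373 to 127993867, minus strand), was at 1.27, 1.19 and 1.88 FPKM in controls and at 0.921, 0.658 and 1.01 in cKO cells. Here every cKO library was below every control, with means of 1.45 ± 0.378 and 0.862 ± 0.181 FPKM (SD, n = 3). The fitted difference of Pycard was -0.39 (SE 0.193) on the log2(FPKM + 1) scale, opposite in sign to those of Casp1 and Gsdmd.

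Gsdmd, which encodes the protein that caspase-1 and caspase-11 cut to open pores (chromosome 15, 75862339 to 75867404, plus strand), was higher in every cKO library. It stood at 1.17, 0.626 and 1.73 FPKM in Control 1 to 3 and at 3.84, 6.25 and 5.14 in cKO 1 to 3. The means were 1.18 ± 0.553 and 5.08 ± 1.21 FPKM (SD, n = 3), a ratio of 4.32, with a fitted difference of 1.49 (SE 0.228) on the log2(FPKM + 1) scale. That difference was 2.09 with 0.1 FPKM added. In the cKO cells Gsdmd thus reached the range of Casp1, while Pycard stood below both.

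The necroptosis genes did not move together. Mlkl encodes the membrane-breaking executor (chromosome 8, 111311800 to 111337903, minus strand). It stood at 4.71, 2.63 and 3.83 FPKM in Control 1 to 3 and at 9.47, 9.09 and 7.97 in cKO 1 to 3. The groups were apart, at 3.72 ± 1.04 and 8.85 ± 0.781 FPKM (SD, n = 3), a ratio of 2.38, with a fitted difference of 1.08 (SE 0.175). Ripk3 encodes the kinase that acts on MLKL (chromosome 14, 55784995 to 55788857, minus strand) and stood at 22.8, 24.6 and 25.9 FPKM in controls and at 19.7, 23.1 and 18.7 in cKO cells. The ranges met, since cKO 2 was above Control 1, and the means were 24.5 ± 1.55 and 20.5 ± 2.33 FPKM (SD, n = 3). Casp8, whose product starts apoptosis and restrains necroptosis (chromosome 1, 58795374 to 58847503, plus strand), gave 14.2, 13.7 and 16.4 FPKM in controls. Its cKO values of 13.6, 15.9 and 13.2 lay in almost the same range, with a fitted difference of -0.05 (SE 0.114).

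Ddx3y splits the libraries within each group, so values were also set side by side within that split, with cKO 2 counted as lacking it. This leaves 2 controls against 1 cKO library with Ddx3y and 1 against 2 without, too few for a test. Casp1 was at a mean of 0.115 FPKM in control and 4.87 in cKO with Ddx3y, and at 0 and 5.60 without. Gsdmd was at 1.45 and 3.84, and at 0.626 and 5.69. Mlkl was at 4.27 and 9.47, and at 2.63 and 8.53. Since the groups of these genes do not overlap, every split of the libraries gives this direction, and only the values are of use.

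Casp1 and the sensors are best known from macrophages, so markers of other cells were measured beside them. Of 14 macrophage and leukocyte markers 7 passed the filter and limma called 1, Fcer1g, an Fc receptor chain gene. It rose from 0.234 ± 0.405 to 15.8 ± 3.77 FPKM (SD, n = 3; limma adjusted p = 1.20e-05), and it passed the filter only through its cKO libraries. The authors' deposited test did not mark Fcer1g as significant. The pan-leukocyte gene Ptprc was at most 0.131 FPKM in any library, Aif1 was listed at 0 in all 6, and the macrophage gene Emr1 was at most 0.760 FPKM in controls and at most 0.117 in cKO. Csf1r, the receptor gene of macrophage growth factor, was higher in every cKO library than in any control, at 0.662 ± 0.209 and 1.33 ± 0.389 FPKM (SD, n = 3; limma adjusted p = 0.143), and Ptprc was ordered likewise, at means of 0.0429 and 0.111. Cd68, a lysosomal gene of macrophages, was at 1.68 ± 0.667 and 2.72 ± 0.360 FPKM, with overlapping ranges (adjusted p = 0.129). The summed level of the 14 markers ran from 10.7 to 56.4 FPKM in controls and from 29.4 to 42.7 in cKO, so the groups overlapped. Lyz2, a lysozyme gene, made up 46.6 of the 56.4 FPKM in Control 1, and the overlap of the sums rests on it. The other markers together were higher in every cKO library than in any control. Most of that came from Fcer1g, at 18.2, 11.5 and 17.9 FPKM in cKO 1 to 3. The mean of Lyz2 was lower in cKO, at 25.5 ± 19.9 FPKM in control and 9.65 ± 2.28 in cKO (SD, n = 3), with overlapping ranges. It was not called by limma (adjusted p = 0.361), whereas the authors' deposited test marked it as significant. Itgam, another marker of this list, was also lower on average, at 0.166 and 0.0243 FPKM. Of 5 endothelial markers none passed the filter, with sums of 0.200 to 0.363 and 0.352 to 0.943 FPKM. Of 6 osteoclast markers 2 passed and neither was called by limma (Ctsk and Acp5, adjusted p = 0.0744 and 0.0888). The 6 summed to 116 to 134 FPKM in controls and 101 to 110.3 in cKO, nearly all of it Ctsk. The 2 went opposite ways. Ctsk was lower in every cKO library, at 122 ± 9.36 and 103 ± 5.48 FPKM in control and cKO (SD, n = 3). Acp5 was higher on average, at 1.98 ± 1.77 and 4.11 ± 0.489, with overlapping ranges. Dcstamp and Calcr were listed at 0. Skeletal muscle markers differed between the groups: 10 of 12 passed the filter and limma called all 10 higher in cKO. The 12 summed to 7.19 to 8.93 FPKM in controls and 131 to 215 in cKO. Of the 10, Myh3, Myl1, Des, Tnnc2, Myog and Myod1 were under 1 FPKM in every control. They passed the filter only through their cKO libraries and so could hardly have been called lower. Mylpf, at 0, 0 and 2.15 FPKM in Control 1 to 3, also needed its cKO libraries to pass. Of 11 chondrocyte markers 9 fell. What part these other cells or states had in the values of Casp1, Gsdmd and Mlkl was not tested, and in bulk RNA more cells of a type and more RNA per cell cannot be told apart.

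Other genes of the pathways were taken from 7 lists of 92 genes in all, none of them among the 10. The lists were drawn up from general knowledge, but with earlier results of these data known, and some of their genes were among those results. Of the 92 genes 60 passed the filter, and limma called 14 higher and 4 lower in cKO. That is 23.3% higher and 6.67% lower, beside 9.81% and 7.96% of all tested genes. The median fitted difference was 0.13 for these 60 and 0.00 for all tested genes. Of the 14, Naip2, Nlrc5, Gbp3, Trim30a, Zbp1 and Tnfaip3 passed the filter only through their cKO libraries and so could hardly have been called lower.

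**Figure D4:**
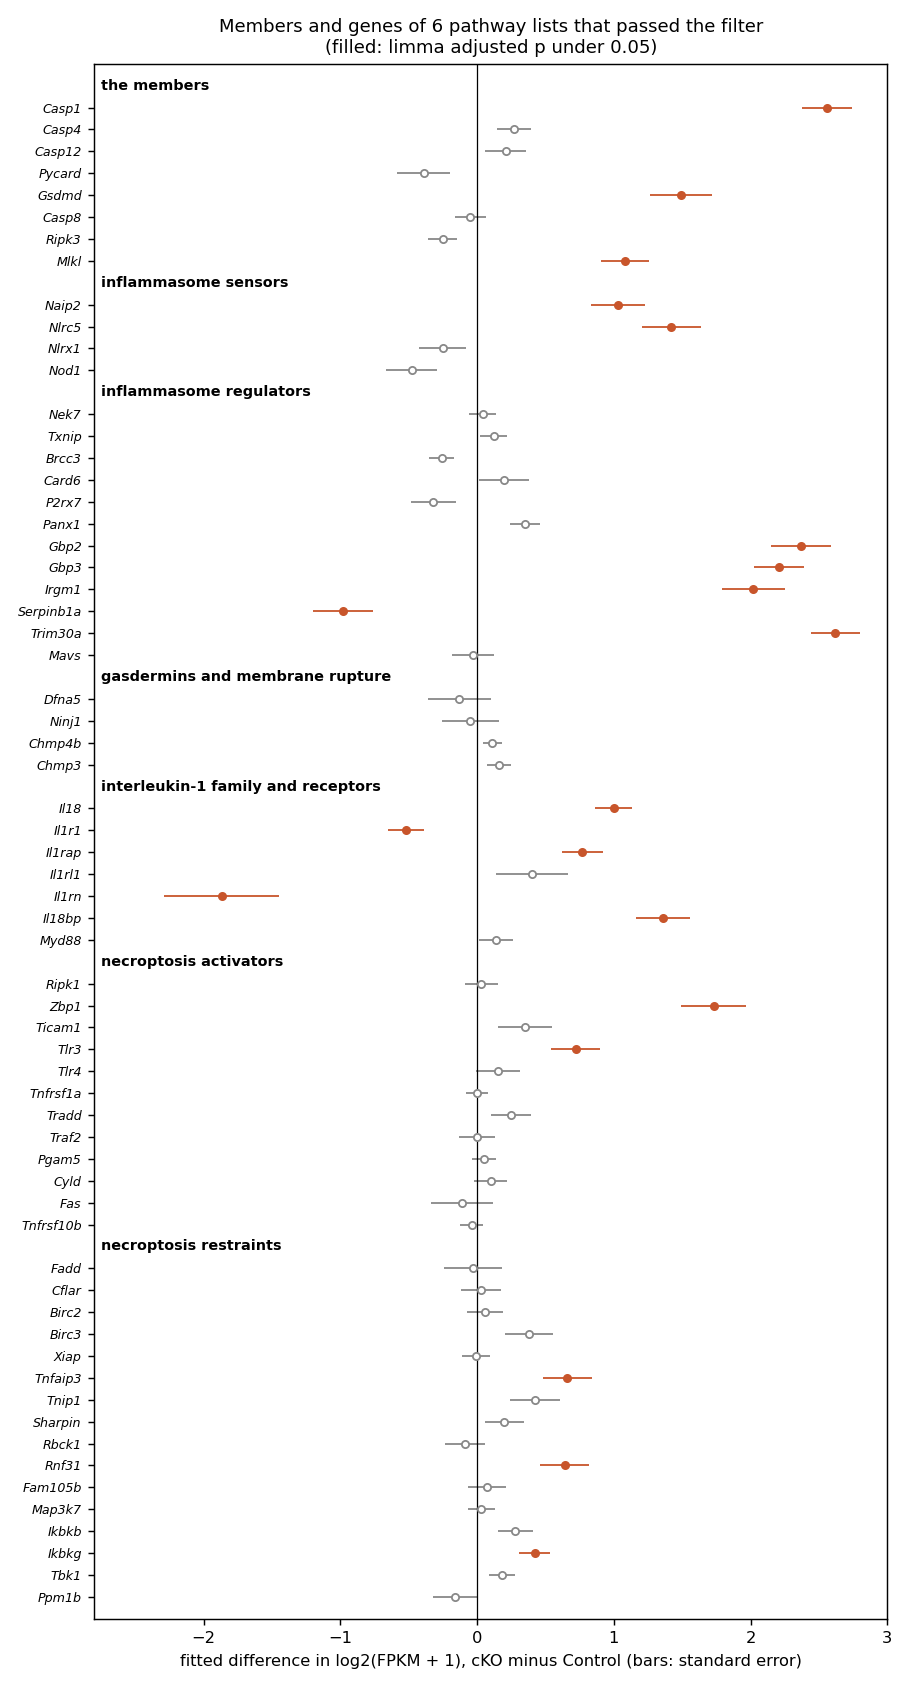
Fitted difference in log2(FPKM + 1), cKO minus control (x axis), of the 8 genes of the set and the genes of 6 of the 7 pathway lists that passed the filter, with bars of 1 standard error. The list of other caspases is not drawn. Filled points passed limma's adjusted p threshold of 0.05. The 8 genes of the set were chosen by this contrast, so a filled point is no support for them. With 1 FPKM added, Trim30a, Casp1, Gbp2 and Gbp3 lie farthest to the right, and this order depends on the added constant. Casp1, Trim30a and Gbp3 passed the filter only through their cKO libraries. Most genes of the necroptosis lists lie near 0.

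Among inflammasome sensors other than Nlrp3 and Aim2, listed together with related genes, most were hardly detected. Of 16 only 4 passed the filter and 2 rose, while 4 were listed at 0 in every library. Naip2, a receptor component for bacterial secretion proteins, rose from 0.117 ± 0.110 to 1.29 ± 0.229 FPKM (SD, n = 3; limma adjusted p = 0.00705), though reads of the similar Naip genes may be shared. Nlrc5, known as an activator of class I antigen presentation genes, rose from 0.585 ± 0.322 to 3.23 ± 0.788 FPKM (adjusted p = 0.00191). Nlrx1 and Nod1 were also tested and not called, at ratios of cKO to control of 0.815 and 0.607 (limma adjusted p = 0.375 and 0.118). Every cKO value of Nod1 was below every control.

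Among the called pathway genes, those that act on the inflammasome held the largest fitted rises with 1 FPKM added, of Trim30a (2.62), Gbp2 (2.37) and Gbp3 (2.21). This order depended on the added constant. With 0.1 FPKM added, Trim30a was at 5.46, Gbp3 at 3.47 and Gbp2 at 2.77. The necroptosis activator Zbp1, at 4.20, then stood above both Gbp genes, and the sensor gene Naip2, at 2.82, above Gbp2. Of 12 tested regulators 4 rose and 1 fell. Gbp2 and Gbp3, interferon-inducible GTPases that help break open vacuoles of bacteria, rose from 2.31 ± 0.737 to 16.3 ± 4.85 FPKM and from 0.425 ± 0.134 to 5.65 ± 1.13 (SD, n = 3; limma adjusted p = 1.17e-04 and 4.70e-05). Irgm1, a GTPase of the same response, rose 4.32-fold to 29.5 ± 2.77 FPKM, and Trim30a, reported in mouse to restrain NLRP3, reached 5.36 ± 1.04 from a mean of 0.0285. Gbp genes are similar to each other, so reads may be shared among them. Serpinb1a, an inhibitor of neutrophil proteases and of caspase activation, fell 2.27-fold (adjusted p = 0.0142), a call lost without cKO 3 (adjusted p = 0.0583). The NLRP3 partner gene Nek7 was at 22.5 ± 2.16 and 23.1 ± 1.37 FPKM, a fitted difference of 0.04 (SE 0.101; adjusted p = 0.839).

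The substrates of caspase-1 differed from each other. Il1b was listed at 0 in all 6 libraries, whereas Il18, which encodes the other cytokine that caspase-1 activates, was present in controls and rose 2.15-fold. Il18 stood at 8.19, 7.32 and 6.74 FPKM in Control 1 to 3 and at 17.9, 13.2 and 16.8 in cKO 1 to 3 (limma adjusted p = 0.00102). Il18bp, the secreted antagonist of interleukin-18, rose 3.59-fold, from 1.55 ± 0.424 to 5.58 ± 1.47 FPKM (SD, n = 3; adjusted p = 0.00161). Il18r1, a receptor chain for that cytokine, was listed at 0 throughout.

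The receptor side of interleukin-1 went both ways. The accessory chain Il1rap rose 1.81-fold (adjusted p = 0.00745), while the receptor Il1r1 fell 1.47-fold, from 27.5 ± 4.54 to 18.8 ± 1.63 FPKM (SD, n = 3; limma adjusted p = 0.0220). The antagonist Il1rn fell 4.12-fold (adjusted p = 0.0205). Neither fall held in every fit with 1 library left out. Il1rn lost its call without Control 3 (adjusted p = 0.0688) and Il1r1 without Control 3, cKO 1, cKO 2 or cKO 3 (adjusted p = 0.0507 to 0.0820). Of the 7 tested genes of this list 3 rose and 2 fell.

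No gene on the list of other gasdermins and membrane rupture was called, and Dfna5 was the only gasdermin on it that could be tested. Of 12 genes of this list 4 passed the filter, Dfna5, Ninj1, Chmp4b and Chmp3. Of these limma called 0, with 0 at an unadjusted p under 0.05 and 0 in the authors' deposited test. Dfna5, which encodes gasdermin E, was at 4.18 ± 0.723 and 3.86 ± 1.46 FPKM (SD, n = 3). Chmp4b and Chmp3, parts of the machinery that repairs torn membranes, were at 83.6 and 44.0 FPKM in control and 90.4 and 49.2 in cKO (limma adjusted p = 0.322 and 0.263). Their fitted differences were 0.11 (SE 0.0698) and 0.16 (SE 0.0904). For both, every cKO library was above every control, as was so for 18.4% of all tested genes. Of the 12, 6 were listed at 0 in every library.

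Upstream of RIPK3, 2 of 12 tested activators rose. Zbp1, a sensor of Z-form nucleic acid that can engage RIPK3 directly, rose from 0.0566 ± 0.0980 to 2.60 ± 1.09 FPKM (SD, n = 3; limma adjusted p = 0.00115). Tlr3, a receptor for double-stranded RNA, rose 2.08-fold, but the call was lost without Control 2, Control 3 or cKO 2 (adjusted p = 0.0593 to 0.0828). Ripk1, the kinase that partners RIPK3, stood at 14.6 ± 2.28 and 14.8 ± 0.358 FPKM, a fitted difference of 0.03 (SE 0.119; adjusted p = 0.894). The death receptor gene Tnfrsf1a was at 72.3 ± 5.12 and 72.1 ± 2.20 FPKM, and its ligand gene Tnf was above 0 in Control 3 alone, at 0.214.

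Of 16 tested genes that hold necroptosis back, 3 rose, and each call was lost when some single libraries were left out. They were Tnfaip3 (the ubiquitin-editing enzyme A20), Rnf31 (a subunit of the linear ubiquitin ligase) and Ikbkg (NEMO), with means of 0.659, 3.55 and 7.57 FPKM in control and 1.63, 6.03 and 10.5 in cKO. Their adjusted p in limma was 0.0336, 0.0375 and 0.0313. Tnfaip3 lost its call without any library but cKO 1 (adjusted p = 0.0689 to 0.114), Rnf31 without any but Control 2 (0.0608 to 0.130) and Ikbkg without any but Control 1 (0.0639 to 0.118). Fadd and Cflar, which act with caspase-8, differed by -0.03 (SE 0.213) and 0.03 (SE 0.147) on the log2(FPKM + 1) scale.

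The other caspases went both ways. Casp6 and Casp9 were higher by 0.50 (SE 0.178) and 0.41 (SE 0.161), past the threshold in the authors' deposited test but not in limma (adjusted p = 0.0875 and 0.115). Casp2 had the same status in the other direction, with a fitted difference of -0.35 (SE 0.135; limma adjusted p = 0.104). Every cKO value of Casp2 was below every control.

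The genes whose values ran most like those of Casp1 over the 6 libraries, by Pearson's r on log2(FPKM + 1), were Phkg2, Flot1, 4930550L24Rik, Mmp13 and Hpcal1, with r = 0.9974 to 0.9992. These are points of 2 groups that share their libraries, so r mostly follows the step between control and cKO. It does not show that these genes vary with Casp1 within a group. In all, 86 tested genes had r over 0.99. The likeness is one of shape and not of level. Phkg2, a phosphorylase kinase subunit gene, went from 3.50 to 4.57 FPKM and the collagenase gene Mmp13 from 79.8 to 273. The X-linked transcript 4930550L24Rik was, like Casp1, near 0 in controls but higher than it in cKO cells, at 0, 0 and 0.221 FPKM in Control 1 to 3 and at 30.8, 37.0 and 32.7 in cKO 1 to 3.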

How the data were processed

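Per the file headers, the 1 gene table that the authors deposited gives FPKM for every library and for the mean of each group. Further deposited columns hold a log2 fold change, a p-value, a q-value and the score of the authors' test. Per the series text and the submitters' processing notes, TopHat aligned the reads to mm10 and Cufflinks was used after it. Versions, annotation, strand setting and scaling are not stated in the sources used here. Per the labels' protocols, RNA had an integrity number above 8 and libraries came from a stranded kit. Interval starts in the table count from 0, since 10537 of 21448 matched RefSeq starts once 1 was added and 672 as given, so 1 was added. The table also has 1 blank line, which was skipped.

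FPKM are not counts, so log2(FPKM + 1) was fitted with limma 3.58.1 (R 4.3.3; trended, robust eBayes). This covered 11911 genes, each reaching 1 FPKM in 2 or more libraries. The test was two-sided, with Benjamini-Hochberg adjustment over all of them and a threshold of 0.05, and it was tested on simulated data. This scale understates the change of low genes. A fold divides one group's mean FPKM by the other's and is left out where the control mean is under 1 FPKM. Named are the 10 genes, the called pathway genes except 1 that is not reported here, the 2 most expressed genes of a list without calls, Uhrf1 and the 5 genes most like Casp1. Other genes named, among them Dfna5, Il1b, Il18r1, Nek7, Ripk1, Tnfrsf1a, Tnf, Fadd, Cflar, Casp6, Casp9, Gria4, Pdgfd and the markers quoted singly, were chosen after their values were seen. The genes and lists were chosen with earlier results of these data known. Alternatives were another threshold, 2 filters, 2 pseudocounts, 2 scalings, a replicate block and fits without each library in turn. A Y-linked covariate and the authors' test were added after seeing the data.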

Additional observations from a re-analysis of the deposited data

How the results depend on the processing

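With at least 5 FPKM required in 2 libraries Casp1 was not tested. The fitted differences of the genes, which were chosen by this contrast, ranged over the alternatives of the limma fit from 2.46 to 5.19 for Casp1, 1.30 to 2.09 for Gsdmd, 0.90 to 1.26 for Mlkl, 0.20 to 0.33 for Casp4 and -0.68 to -0.27 for Pycard. That of Casp8 changed sign, from -0.13 to 0.02. At an adjusted p under 0.01 limma called 1024 genes (647 higher, 377 lower) and 10 pathway genes, 0 of them lower, against 7 lower at an unadjusted p under 0.05 and 5 in the authors' deposited test. A filter of 5 FPKM left 9 pathway genes higher, by its construction from fewer genes tested. The Y-linked covariate left 2 pathway genes lower, and the cause was not tested. Without 1 library at a time the calls were 1268 to 1998 in all, 765 to 1095 higher and 503 to 931 lower. In such fits 12 to 16 pathway genes were called, 10 to 13 higher and 1 to 4 lower. All genes called lower were 503 without cKO 3, 598 without cKO 1 and 625 without cKO 2, and without cKO 3 calls in all were 1268. Pathway genes called lower were 1 without Control 3 or cKO 3 and 2 without cKO 1 or cKO 2. Upper-quartile scaling gave 15 pathway genes higher and 3 lower, and over all genes 1227 higher and 813 lower.

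Libraries with the same replicate number did not deviate together (correlations 0.169, 0.0258 and -0.0443), and only those numbered 1 matched each other best. With a replicate block 2097 of the 11911 tested genes were called, and 17 of them were pathway genes. Absolute depth is unknown, so it cannot be said what level of Nlrp3, Aim2 or the sensors listed at 0 would have been detectable.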
